A study of Mus musculus with 2 samples.

Results

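The S100 genes described here are S100a8 and S100a9, which encode the subunits of calprotectin, and 7 others of the same family, S100a1, S100a3, S100a4, S100a6, S100a10, S100a11 and S100a13. They are 9 of 19937 mouse genes with a probe set that the platform annotation gives to a single symbol. S100a8 and S100a9 were chosen by their measured difference between these same arrays, and the other 7 were listed with results of these data known. Their values are therefore a description and support nothing further. The question asked of them is whether the higher reading of calprotectin in Il34LacZ/LacZ was shared by other S100 genes.

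Langerhans cells, the Langerin-bearing antigen-presenting cells of the epidermis, were sorted from the skin of mice of 2 genotypes, Il34+/LacZ and Il34LacZ/LacZ. Il34 encodes interleukin-34, a skin-made ligand of the CSF1 receptor, and the LacZ allele is present in 1 copy in the first genotype and in both copies in the second, so the control carries it too. All mice were 8 to 12 weeks old and had been exposed to ultraviolet light for 30 min; cells positive for Langerin and Epcam were taken 21 days later. RNA of each genotype was read on 1 array (n = 1), with no statement of how many animals supplied it, so there is no replicate error and no test between genotypes. No unexposed sample was analysed here.

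S100 proteins are small calcium-binding proteins that form dimers, each chain folding into a pair of EF-hand motifs. Calprotectin, the dimer of S100A8 and S100A9, fills the cytosol of neutrophils and monocytes, is induced in stressed keratinocytes, withholds zinc and manganese from microbes, and signals through TLR4 and RAGE when released. The other members act mostly inside cells, where they bind annexins, myosin or further partners in a calcium-dependent way, S100A10 being the member that binds its partner without calcium.

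The RefSeq table of GRCm38.p6 places 15 S100 genes on mouse chromosome 3, and all 9 members are among them. S100a8 and S100a9 are next to each other with no other protein-coding gene between them, as are S100a1 and S100a13, and S100a11 and S100a10. RefSeq start-site sequences were found for 8 of the 9 members, and S100a10 had no entry. The 250 bases before the annotated start of S100a8 (chr3:90668821-90669070, plus strand) and of S100a9 (chr3:90695722-90695971, minus strand) are shown first, because these were the members that read far higher in Il34LacZ/LacZ. Capitals mark matches, on either strand, to TATAAA (the TATA box), TTNNGNAA (a C/EBP pattern), TGANTCA (an AP-1 pattern) and GAGGAA (an ETS pattern, as read by PU.1), and neighbouring matches can run together.
S100a8: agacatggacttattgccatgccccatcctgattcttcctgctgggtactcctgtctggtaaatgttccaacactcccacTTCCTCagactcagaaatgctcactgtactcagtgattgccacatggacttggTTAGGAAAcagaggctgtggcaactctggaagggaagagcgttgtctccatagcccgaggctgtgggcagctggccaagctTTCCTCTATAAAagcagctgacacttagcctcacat
S100a9: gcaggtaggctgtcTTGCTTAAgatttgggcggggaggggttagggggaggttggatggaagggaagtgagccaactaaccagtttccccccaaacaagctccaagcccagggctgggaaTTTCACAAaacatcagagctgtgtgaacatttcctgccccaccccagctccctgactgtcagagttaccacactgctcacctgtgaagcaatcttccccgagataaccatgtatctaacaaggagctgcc
The window of S100a8 held TATAAA at bases -30 to -25, counting -1 as the last base before the start, 1 C/EBP match at -117 to -110 and 2 ETS matches, of which the one at -36 to -31 directly precedes the TATA box. The S100a9 sequence held 2 C/EBP matches, at -236 to -229 and -130 to -123. Its TATAAA lay at bases 1 to 6 after the annotated start, outside the printed stretch. No AP-1 match was found in either gene's window of 300 bases, 250 before to 50 after the start. Among 32851 such windows in the RefSeq table, 13.6% held TATAAA, 40.7% the C/EBP pattern, 7.81% the AP-1 pattern and 28.3% the ETS pattern, so the C/EBP and ETS letters are frequent. A match is a run of letters and does not show that a factor binds there.

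Members that read nearly alike on both arrays are shown by the 60 bases before the start of S100a4 (chr3:90603710-90603769), S100a6 (chr3:90612834-90612893) and S100a11 (chr3:93520436-93520495), all on the plus strand, with TATAAA in capitals.
S100a4: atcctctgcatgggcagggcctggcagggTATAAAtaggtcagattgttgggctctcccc
S100a6: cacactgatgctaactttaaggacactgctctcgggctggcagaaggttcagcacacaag
S100a11: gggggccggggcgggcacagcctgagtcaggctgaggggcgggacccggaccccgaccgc
Of these, S100a4 held TATAAA, at -31 to -26, and the other two did not; 3.92% of the 60-base windows in the table hold it. In the 300-base windows of these genes, S100a11 held 2 AP-1 matches and 1 ETS match, S100a4 held 1 ETS match and S100a6 held none of the 4 patterns. The TATA letters were thus present near the start of a member with a high and nearly equal reading as well as near those of the calprotectin genes.

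S100a1 and S100a13 are transcribed away from each other, and their annotated starts are separated by the 104 bases below (chr3:90514331-90514434, plus strand). They are shown because these neighbours had almost the same difference. None of the 4 patterns was found in it, so no letter is in capitals.
S100a1-S100a13: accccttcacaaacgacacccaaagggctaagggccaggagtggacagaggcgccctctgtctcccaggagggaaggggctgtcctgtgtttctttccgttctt
The 2 gene records of RefSeq overlap by 98 bases, so the stretch between these starts is not wholly outside the records. Where the probes of either gene lie was not analysed here.

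Calprotectin read several-fold higher in Il34LacZ/LacZ, and none of the 6 other members at or above the floor defined below read 1.5-fold higher. S100a8 read 71.9 intensity units for Il34+/LacZ against 552.1 for Il34LacZ/LacZ. S100a9 read 103.2 and 698.6 in the same order, which is kept throughout. Both genes moved from a level not far above the floor, the median intensity of all probe sets (48.7), to well above it. Without any pseudocount the ratios were 7.68 for S100a8 and 6.77 for S100a9. On the log2(intensity + 16) scale used below, which understates the change of dim genes and to which "as deposited" refers for folds and counts below, the differences, Il34LacZ/LacZ minus Il34+/LacZ, were 2.69 and 2.58. The 2 subunit genes therefore differed from each other by 0.11. That gap is smaller than 0.63, the SD with which different probe sets of one gene disagree in their difference (614 genes), the only measure of error in these files; it covers neither animals nor sorts. In rank among the 19937 genes, S100a8 stood at the 57.1 percentile in Il34+/LacZ and the 96.7 percentile in Il34LacZ/LacZ, and S100a9 at the 65.4 and 97.6 percentiles.

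**Figure D1:**
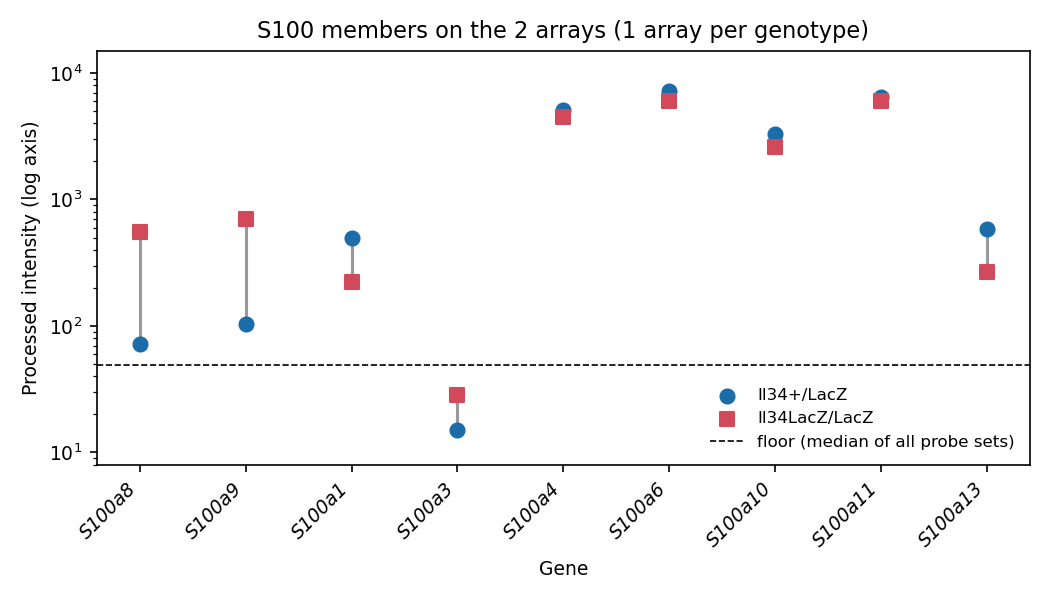
Processed intensity (log axis) of the 9 S100 members on the Il34+/LacZ array (circles) and the Il34LacZ/LacZ array (squares), with a dashed line at the floor of 48.7; each point is 1 array and there are no error bars. S100a8 and S100a9 lie higher in Il34LacZ/LacZ, S100a1 and S100a13 lower, S100a4, S100a6, S100a10 and S100a11 nearly coincide, and S100a3 is under the floor on both arrays.

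The difference depends on how bright a gene is, so each value was also taken after subtracting a smooth curve of differences against mean level, called the trend. Genes at or above the floor had a median difference of -0.16, which became 0.03 with the trend removed. At the level of S100a8 and S100a9 the trend was -0.50 and -0.58, and with it removed their differences were 3.20 and 3.16. The calprotectin readings thus ran against the direction of the typical gene of their level.

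Of the 9 members, 8 were at or above the floor on at least 1 array, and 2 of these 8, the calprotectin genes, read at least 1.5-fold higher in Il34LacZ/LacZ. Over all 12843 genes that passed the floor, 9.36% read higher and 28.2% lower by that fold. With the trend removed these shares were 13.9% and 18.6%. Counts as deposited set a level below the floor to the floor, and counts with the trend removed did not. The calprotectin genes were selected on this contrast, so nothing is read from their count. None of the 6 other members at or above the floor read 1.5-fold higher, and 2 of them, S100a1 and S100a13, read 1.5-fold lower. The median difference of the 6 at or above the floor was -0.30, against -0.16 over all genes there, and 0.10 against 0.03 with the trend removed. With so few genes, neither the count nor the median sets these 6 apart from other genes.

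**Figure D2:**
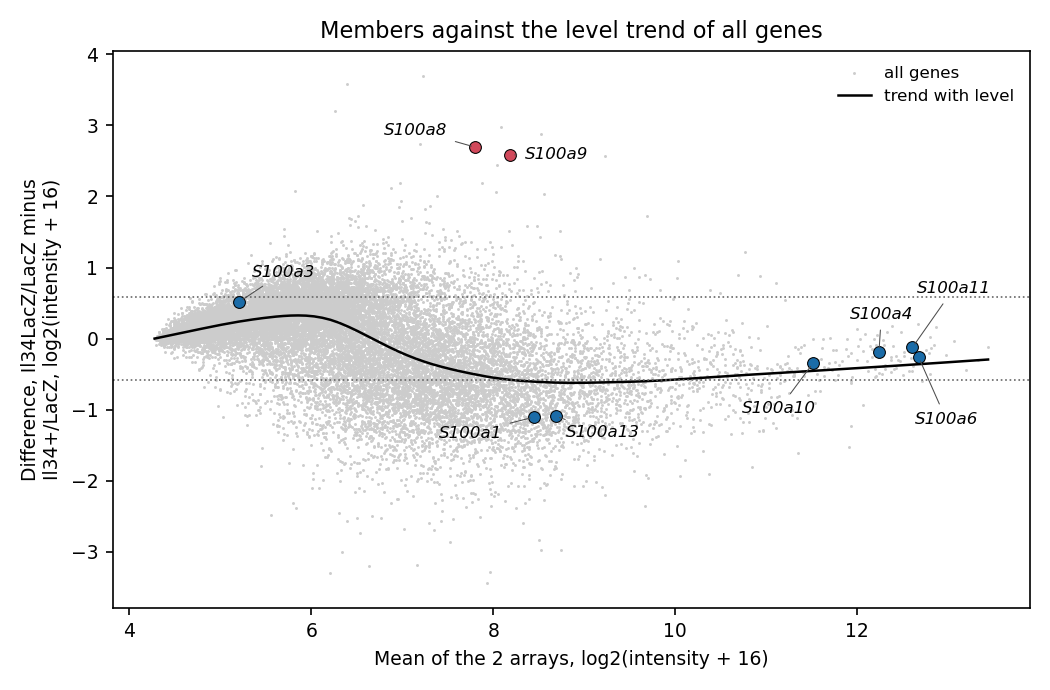
Difference, Il34LacZ/LacZ minus Il34+/LacZ, against the mean of both arrays, each in log2(intensity + 16), for all named genes (grey), with the trend with level (line), the 1.5-fold limits (dotted) and the 9 members labelled. S100a8 at 2.69 and S100a9 at 2.58 stand above most genes of their level, though not above all of them, S100a4, S100a6, S100a10 and S100a11 lie close to the trend line, and S100a1 and S100a13 lie below it by 0.50 and 0.47.

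The 4 members with a mean intensity above 1000 read slightly lower in Il34LacZ/LacZ, each by less than 1.3-fold. S100a4, which binds the heavy chain of non-muscle myosin, read 5146.4 and 4514.1 (difference -0.19). S100a6, also called calcyclin, read 7154.0 and 5961.7 (difference -0.26). S100a10, the annexin A2 partner p11, read 3282.8 and 2584.4 (difference -0.34). All 3 were high on both arrays and differed by less than 0.45, the SD between probe sets of one gene among the 77 genes with a mean intensity of 1000 or more. S100a11, which binds annexin A1, is the one member to which the platform annotation gives 2 single-symbol probe sets. They read 6498.5 and 5963.8 (difference -0.12), and 4081.4 and 3801.0 (difference -0.10). Both probe sets thus gave nearly the same small difference. RefSeq also lists a pseudogene named S100a11-ps on chromosome 12. Where the probes of the 2 sets lie, and whether they separate S100a11 from such copies, was not analysed here.

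The sign of these small differences depended on the scaling. With the trend removed, S100a4 was higher by 0.21, S100a6 by 0.10, S100a10 by 0.11 and S100a11 by 0.24, all still within the probe set SD. Among the settings computed per gene, the differences ran from -0.39 to 0.21 for S100a4 and from -0.54 to 0.11 for S100a10. Neither sign held, then, and none of the 4 reached 1.5-fold in any of them.

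S100a1 and S100a13 read lower in Il34LacZ/LacZ, by almost the same amount. S100a1, best known for regulating calcium release in heart and skeletal muscle, read 496.9 and 223.0, 2.15-fold lower (difference -1.10). S100a13, which takes part in the release of FGF1 and interleukin-1 alpha from cells, read 584.7 and 266.2, 2.13-fold lower (difference -1.09). The neighbours differed from each other by 0.01. Genes of their level were also lower, with a trend of -0.61 and -0.62. With the trend removed the differences were -0.50 and -0.47, which is less than the probe set SD and less than 1.5-fold. Both read lower in every setting computed per gene, between -1.29 and -0.50 for S100a1 and between -1.28 and -0.47 for S100a13.

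S100a3, a protein of the hair cuticle, read 14.9 and 28.3, below the floor on both arrays. Its plain ratio of 1.90 is therefore not read as a change. RefSeq lists 4 start sites for it, and the gene record of S100a2 lies within that of S100a3. S100a2 itself read 33.1 and 54.3, near the floor.

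**Figure D3:**
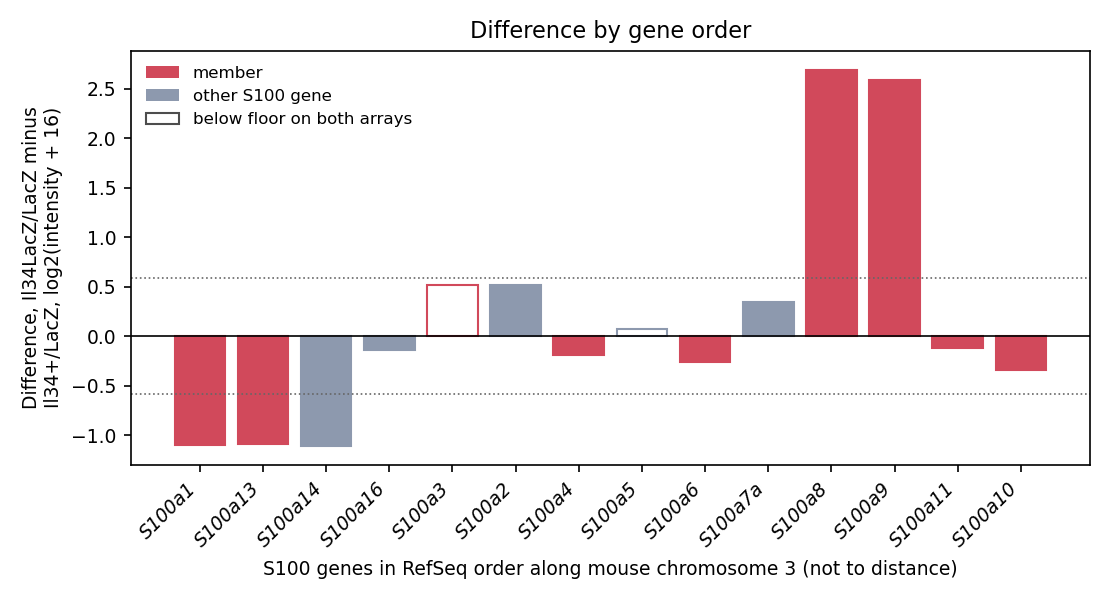
Difference, Il34LacZ/LacZ minus Il34+/LacZ, in log2(intensity + 16), of the measured S100 genes of chromosome 3 in RefSeq order (not to distance); members are red, other S100 genes grey, open bars are below the floor on both arrays, and dotted lines mark 1.5-fold. The neighbours S100a8 and S100a9 are the high bars, S100a7a beside them is at 0.35, and S100a1, S100a13 and S100a14 at the other end are all near -1.1.

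Beyond the members, 8 further S100 genes had a single-symbol probe set, and 5 of them were at or above the floor on at least 1 array. On the log2(intensity + 16) scale none of these 5 read 1.5-fold higher and 1 read 1.5-fold lower, beside 9.36% and 28.2% over all genes. With the trend removed 1, S100g, was 1.5-fold higher and 1, S100a14, lower, beside 13.9% and 18.6%. So few genes are not set apart from other genes by these counts. Without the pseudocount or the floor, S100g and S100a2 passed 1.5-fold higher, with ratios of 1.60 and 1.64. S100a2 was below the floor in Il34+/LacZ. The ratio of S100z, below the floor on both arrays, was 1.61. The gene that read lower was S100a14, an S100 gene of epithelia, which read 104.9 and then 40.1, at least 1.87-fold lower against the floor, and lower by 1.30 with the trend removed. S100a14 is next to S100a13 in the gene order. S100a7a, the neighbour of S100a8 and a mouse gene of the psoriasin group, read 35.1 and 49.1, at the floor. S100a16 read 70.3 and 62.6, a difference of -0.13. S100g, a vitamin D-dependent calcium binder of the intestine, read 76.0 and 122.0, a plain ratio of 1.60. Its difference was 0.58 on the log2(intensity + 16) scale, just short of 1.5-fold, and 0.68 with the trend removed. That is within the probe set SD as deposited and just past it with the trend removed.

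S100b, whose protein is widely used to stain human Langerhans cells, read 34.8 and 35.1, below the floor on both arrays, as did S100a5 and S100z. The S100 fused-type genes, large epidermal proteins that begin with an S100 domain, were mostly dim: of 6 measured, 3 were at or above the floor. Tchh, which encodes trichohyalin of hair follicles, read 52.0 and 100.9, 1.72-fold higher, and Hrnr and Tchhl1 lay within 1.5-fold. Flg2, Rptn and Crnn were below the floor on both arrays.

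Receptors of calprotectin did not read 1.5-fold higher as deposited. Of 9 genes on this list, 7 were at or above the floor, none was 1.5-fold higher and 1 was 1.5-fold lower, and the median difference was -0.36. Over all genes that passed the floor, 9.36% read higher and 28.2% lower. Tlr4 read 39.1 and 24.0, below the floor on both arrays, and Ly96, its co-receptor MD-2, read 51.3 and 31.3. Cd14, which delivers ligands to TLR4, read 582.5 and 833.7, 0.51 higher as deposited and 1.11 higher after the trend was subtracted. Ager, which encodes RAGE, read 106.0 and 150.7 (difference 0.45, 0.73 with the trend removed). The adhesion molecule gene Alcam read 595.1 and 315.2, 1.84-fold lower. Tlr4 was therefore under the floor on both arrays and its accessory Cd14 above it on both. With the trend removed, 2 of the list were higher and 1 lower by 1.5-fold, with a median of 0.09, beside 13.9% and 18.6% over all genes. The 1 lower was Ly96 (-0.84), counted with no level set to the floor, while Alcam fell short (-0.26). With so few genes, neither count sets the list apart from other genes.

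Binding partners of the other members were not set apart from genes in general by their count. The floor was passed by 13 of 14 genes. By the 1.5-fold measure 5 of these read lower and none higher, with a median of -0.40, beside 28.2% lower over all genes that passed the floor. With the trend removed none of those 5 was 1.5-fold lower. The 1 then counted lower was Il1a (-0.67), which read 53.8 and 38.8, and none was higher (median 0.03). Over all genes 18.6% were lower and 13.9% higher in that version. Anxa2, the partner of S100a10, read 1634.0 and 1340.5 (difference -0.28), close to the -0.34 of S100a10 itself. Anxa1, the partner of S100a11, read 1601.1 and 753.5, 2.10-fold lower, while S100a11 differed by -0.12. Myh9, the myosin heavy chain that S100a4 binds, read 1006.0 and 461.1, 2.14-fold lower, while S100a4 differed by -0.19. With the trend removed Anxa1 and Myh9 differed by -0.51 and -0.49, within the probe set SD. Il1a and Fgf1, the cargo of S100a13, were near or below the floor.

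Transcription factors linked to S100a8 and S100a9 mostly read lower in Il34LacZ/LacZ as deposited. All 10 measured passed the floor, with 6 of them 1.5-fold lower and none higher (median -0.72). Over all genes that passed the floor, 28.2% read lower and 9.36% higher. Subtracting the trend left 3 of the 10 lower and 1 higher (median -0.17), beside 18.6% and 13.9% over all genes. Cebpb, a C/EBP factor of myeloid cells, read 442.8 and 608.1, 0.44 higher as deposited and 1.06 higher after the trend was subtracted. Cebpd read 182.7 and 80.7, 2.05-fold lower, and Hif1a, the hypoxia factor, read 218.1 and 79.6, 2.45-fold lower. Spi1, which encodes PU.1, read 1758.6 and 885.7, 1.97-fold lower, and Jun, a subunit of AP-1, 3808.4 and 1740.4, 2.18-fold lower. As deposited the C/EBP genes thus differed in direction among themselves, Cebpb and Cebpe (difference 0.35) reading higher and Cebpa (difference -0.66) and Cebpd lower. With the trend removed Cebpa (-0.05), Cebpe (0.19) and Spi1 (-0.43) were within the probe set SD, and Cebpd was at -0.77.

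**Figure D4:**
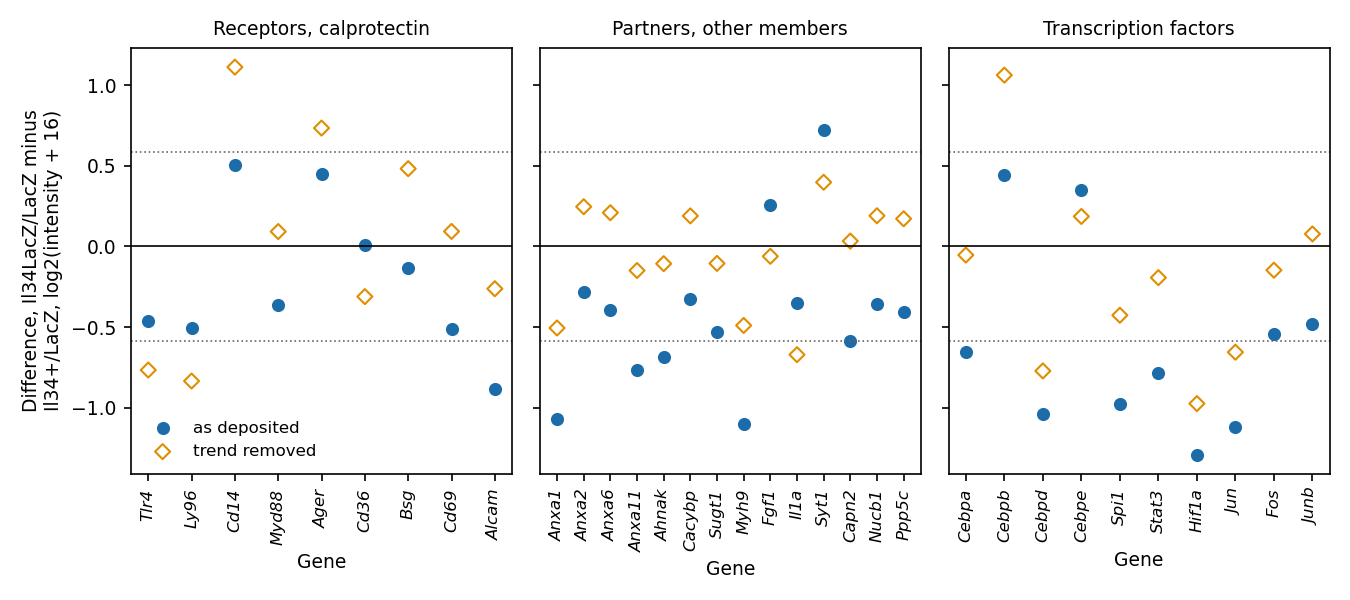
Difference, Il34LacZ/LacZ minus Il34+/LacZ, in log2(intensity + 16), as deposited (filled circles) and with the trend with level removed (open diamonds), for calprotectin receptors and signalling genes, binding partners of the other members, and transcription factors linked to S100a8 and S100a9; dotted lines mark 1.5-fold and each point is 1 gene. Cd14 at 0.51 and Cebpb at 0.44 move past 1.5-fold when the trend is removed.

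The sorted cells carried their defining markers on both arrays. Cd207, which encodes Langerin, read 3153.0 and 1852.0 and Epcam 632.9 and 707.7, and all 10 Langerhans cell markers were at or above the floor, with a summed level of 34298 against 28157. As deposited 4 of the 10, Cd207, Csf1r, Cd24a and Tgfbr1, read 1.5-fold lower, with none higher (median -0.43). After subtraction of the trend none was lower and 1, Epcam, was higher (median 0.09). Over all genes that passed the floor, 28.2% read lower and 9.36% higher, or 18.6% and 13.9% with the trend removed. The targeted gene Il34 read 39.4 and 64.4, near the floor in cells that are not its main source, and does not check the labels. In such bulk samples, more cells of a type and more RNA per cell cannot be told apart.

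Most neutrophil markers stayed near or below the floor beside the high calprotectin reading. Of 17 measured, 9 were at or above it, 1 was 1.5-fold higher and 1 lower, and the median difference was 0.46. Over all genes that passed the floor, 9.36% read higher and 28.2% lower. With the trend removed 2 of the markers, Camp (0.87) and Ngp (0.79), were higher and none lower (median 0.16), beside 13.9% and 18.6% over all genes. Ngp, 1.07-fold higher with the floor applied, was counted there with no level set to the floor. The summed level of the markers was 3788 against 2954, of which Il1r2, also a gene of dendritic cells, made up 2976.8 and 2116.3. Ly6g, the defining surface marker of mouse neutrophils, read 8.5 and 11.5, and Cxcr2 33.6 and 25.5, both below the floor. The granule genes Camp and Ngp read 27.4 and 82.6, and 16.5 and 53.5, with Camp at least 1.52-fold higher and Ngp reaching just past the floor. Mmp9, the 1 that read lower, was at 380.2 and 190.9, 1.91-fold. No probe set of either array was listed at 0 (lowest 2.20), so the absence of a 0 says nothing particular about these markers. The part of neutrophils in the calprotectin reading was not tested.

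Monocyte, macrophage and platelet lists each held genes that read higher together with calprotectin, and the monocyte and macrophage lists also held genes that read lower. Of 13 measured monocyte genes, 11 were at or above the floor, 3 were higher and 3 lower (median -0.10), beside 9.36% higher and 28.2% lower over all genes there, and the summed level was 2652 and 2141. After the trend was subtracted 2 were higher and none lower, with a median of 0.05, beside 13.9% higher and 18.6% lower over all genes. Clec4e, a lectin receptor of activated myeloid cells, read 81.7 and 218.8, 2.40-fold higher. The 3 that read lower were Lyz2 (1.65-fold), Plac8 (1.77-fold) and Itgam (1.78-fold). Of 10 macrophage genes, 8 were at or above the floor, 2 were higher and 1 lower, with a summed level of 3657 and 4263 and a median difference of 0.22. With the trend removed 5 were higher and none lower (median 0.76), beside the same 13.9% and 18.6% over all genes. These were Ms4a7, C1qa, C1qb, C1qc and Cd68. The 2 that read higher as deposited were Ms4a7, at 64.8 and 270.0, and the complement gene C1qa, at 256.2 and 598.8. The 1 that read lower was Adgre1, at 281.0 and 144.6, 1.85-fold. The platelet list, 6 genes summing to 391 and 1326, held 1 gene past 1.5-fold, the chemokine Pf4, which read 148.1 and 975.3, while its companion Ppbp stayed near the floor at 35.9 and 57.8. The part of these cells was not tested.

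Most keratinocyte genes ran the other way. Of 20 measured, 16 passed the floor and 11 of these read 1.5-fold lower, with none higher, and the summed level was 5527 against 1288. With the trend removed 10 were lower and none higher (median -1.12). Over all genes that passed the floor 28.2% read lower, or 18.6% with the trend removed. By sign alone 14 of the 20 were lower and 6 higher. Krt6a (0.42), Krt16 (0.31) and Krt17 (0.65) were higher, each below the floor in Il34+/LacZ. The basal keratin gene Krt14 read 787.4 and 58.6. S100a14, an epithelial gene, was lower alongside most keratinocyte genes, while S100a6, S100a10 and S100a11, which keratinocytes also express, differed by -0.12 to -0.34. The part of keratinocyte RNA in any S100 reading was not tested.

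**Figure D5:**
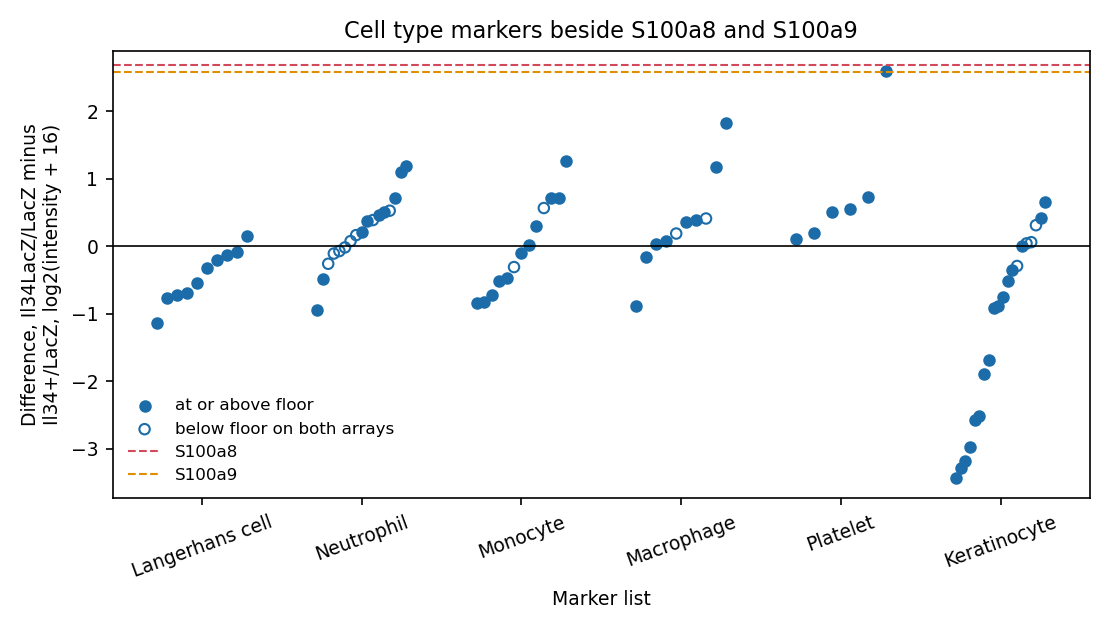
Difference, Il34LacZ/LacZ minus Il34+/LacZ, in log2(intensity + 16), of the measured genes of 6 marker lists, each point 1 gene, filled where it is at or above the floor on at least 1 array; dashed lines mark S100a8 at 2.69 and S100a9 at 2.58. Pf4 at 2.60 lies between these lines, and keratinocyte markers extend down to -3.43.

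Likeness to the calprotectin genes was measured as the distance between the pairs of log2 levels over the 2 arrays, which reflects level and difference only. The 5 genes nearest to S100a8 were Acod1 (0.37), Carnmt1 (0.38), Snord61 (0.44), Mir99b (0.54) and Snora16a (0.86). Those nearest to S100a9 were Carnmt1 (0.23), Snord61 (0.32), Mir99b (0.43), Mir341 (0.51) and Acod1 (0.53). S100a8 and S100a9 were 0.55 apart on this measure. Acod1, which encodes the itaconate-producing enzyme of activated macrophages, read 94.0 and 484.7, and 3 of the genes nearest S100a8 encode small RNAs.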

How the data were processed

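The values the authors deposited are 1 intensity for every probe set and array (2 arrays), linear in scale as judged from the values. Summarisation, background removal and scaling between arrays remain not given in the sources used here. In all, the table held 34760 probe sets, of which the platform annotation gave 21640 a single gene symbol, 1321 several and 11799 none. Only the first kind was named, and all 17 S100 genes matched the RefSeq table by gene number and symbol. A gene was represented by its probe set with the highest mean. Deposited intensity was transformed as log2(intensity + 16). The floor was the median intensity over every probe set of the pair of arrays, and a level below it was set to it for a fold, given as "at least". The trend of differences with mean level was fitted with lowess (fraction 0.3) and subtracted in a second version. In that version no level was set to the floor for a count. Array number limits the precision, and with 1 array per genotype no test was made. Sequences came from RefSeq tables of GRCm38.p6.

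Every S100 and fused-type gene was named whatever its value, as were genes of the receptor, partner and factor lists, examples of each cell type list, and the 5 genes nearest S100a8 and S100a9, leaving out predicted names. Members and lists were chosen with earlier results of these data known. Alternatives changed the pseudocount, scaling, probe set rule and floor. The scripts were tested on simulated data. Python 3.11.15, numpy 2.4.6, pandas 2.3.3, statsmodels 0.14.6 and matplotlib 3.10.9 were used.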

Additional observations from a re-analysis of the deposited data

How the results depend on the processing

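S100a8 and S100a9 stayed higher in Il34LacZ/LacZ in all 6 alternatives computed per gene, by 2.18 to 3.20 and by 2.19 to 3.16 on the log2 scale. None of the other members that passed the floor of a setting reached 1.5-fold higher in any of the 8 alternatives. The count of them 1.5-fold lower, 2 as reported, was 1 after quantile normalization and 0 with the trend with level removed. Their median of -0.30 ran from -0.50 (each array centred on its median) to 0.10 (trend removed). The background depended more on the processing: 1202 genes were 1.5-fold higher and 3622 lower as reported. The counts were 681 and 4681 with arrays centred on their medians, 1823 and 2145 after quantile normalization, 1785 and 2384 with the trend removed, and 254 and 2389 with the floor at the 75th percentile. There were 2445 higher with no floor and 458 with a pseudocount of 64, which shrinks differences of dim genes by construction. The cause of the other shifts was not tested. Array scaling and the trend cannot be told apart from genotype with 1 array each. No paired analysis was possible because each genotype has 1 array, and no array could be left out. S100a3 lay below the floor, so its difference, 0.88 with a pseudocount of 1, could not be read as a change.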
